A study of Mus musculus with 2 samples.

Results

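The 48 genes described here encode cyclins, cyclin-dependent kinases (CDKs), CDK inhibitors, the Rb family, E2F factors and the enzymes that switch CDKs on and off, taken from a list of symbols among 24354 measured genes. All 48 were found. The list also holds Anxa11, which encodes an annexin, a calcium-dependent membrane-binding protein outside these families. Mouse ESCs were differentiated as embryoid bodies (EBs), and poly(A) RNA from 1 Diff–CONT culture and 1 Diff–iKO culture was sequenced. Each condition therefore had 1 library, and the differences below were not checked in further cultures.

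Diff–CONT ESCs came from Ino80 2f/2f blastocysts, in which both Ino80 alleles are floxed, and the sample labels call their genotype WT. Diff–iKO ESCs came from Ino80 2f/2f;ROSA26-CreER blastocysts, and their label is Ino80 knockout. CreER is a recombinase that 4-hydroxytamoxifen (4-OHTM) activates, and ROSA26 is a locus active in most cell types, so CreER is not limited to 1 cell type. Both cultures had the same treatment. They were primed in serum for 2 days and attached to gelatin on day 4 of EB formation. From the next day they were kept for 7 days in differentiation medium with BMP4 and 0.5 µM 4-OHTM. The lines were derived on mitomycin-treated feeder fibroblasts.

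Cyclins bind CDKs and activate them at set points of the cell cycle. D-type cyclins with Cdk4 or Cdk6, and E-type cyclins with Cdk2, phosphorylate the Rb proteins, which then release the E2F factors that transcribe S phase genes, while A- and B-type cyclins with Cdk2 and Cdk1 act in S phase and mitosis. The Cip/Kip inhibitors act on several cyclin–CDK complexes, the Ink4 inhibitors bind Cdk4 and Cdk6, Wee1 kinases inhibit CDKs and Cdc25 phosphatases reverse that. ESCs are known for a short G1 phase that lengthens as they differentiate.

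Expression is given as FPKM, a fragment number divided by transcript length and library size, which sets genes of unequal length on 1 scale. The FPKM of low genes rose in steps of 1 fragment, with 85.8% and 87.0% of low values within 0.2 of a whole multiple against 40% by chance. These steps gave about 27649200 fragments on genes under the Diff–CONT label and 21507500 under the Diff–iKO label. From each gene's fragments, a 95% interval of its log2 ratio was computed by the exact method of Clopper and Pearson. All intervals here cover counting error and no spread between cultures. Whole-gene Ino80 FPKM was 8.90 under the Diff–CONT label and 10.3 under the Diff–iKO label, a log2 ratio of 0.21 with an interval of 0.11 to 0.31. Ino80 was thus not lower in the library with the knockout label. Which exons were read is not visible in a whole-gene value, so every direction below refers to the library labelled Diff–iKO, and values are given under the Diff–CONT label first and the Diff–iKO label second. Xist, the RNA that coats an inactive X chromosome, had an FPKM of 0.0639 and 3.59 in that order, and the summed FPKM of 4 Y-linked genes was 12.1 and 3.88, so the libraries also differed in sex-linked transcripts.

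Cell type markers differed between the libraries as well, counted here and below with a cut-off of FC ≥ 2 and an FPKM of at least 2 in 1 or both libraries. The summed FPKM of 10 pluripotency markers was 480 under the Diff–CONT label and 2996 under the Diff–iKO label, and 9 of the 10 were at least 2-fold higher there. The 10 yolk sac and visceral endoderm markers summed to 231 and 11.8, and all 10 were at least 2-fold lower. The 10 cardiomyocyte markers summed to 83.0 and 24.6, with 5 past the cut-off lower, and the 6 nascent mesoderm markers to 15.8 and 4.46, with 2 lower. Trophoblast markers summed to 98.8 and 147 over 15 genes, of which 10 were past the cut-off higher and 1, Hand1, the highest of them, lower at 70.8 and 31.3. The 10 mesenchyme and feeder fibroblast markers summed to 1955 and 1704, with 6 past the cut-off lower, while Col1a1, the highest of them, had an FPKM of 880 and 1199. The 10 endothelial markers summed to 64.9 and 74.1, with 6 past the cut-off lower and 1, Pecam1, higher at 16.2 and 53.9. No marker of these 7 lists was at 0 in either library. With bulk RNA, fewer cells of a type and less RNA per cell cannot be told apart, and the part of cell type make-up in the values below was not tested.

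**Figure D1:**
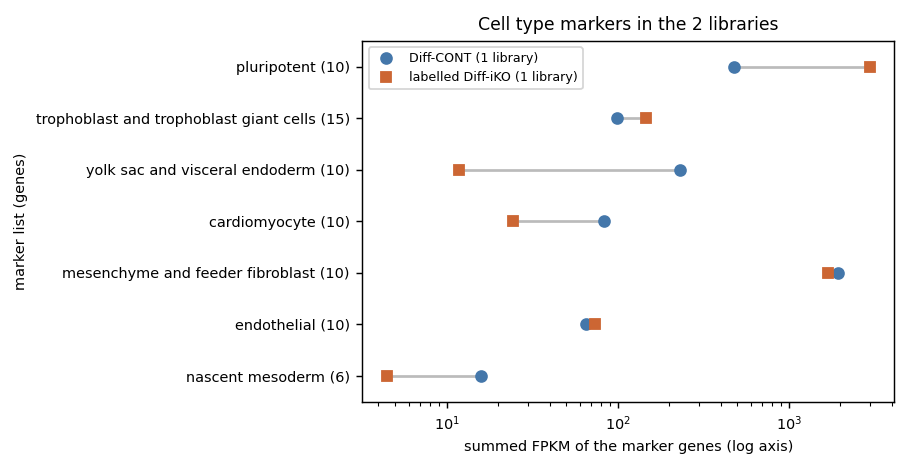
Summed FPKM (log axis) of 7 marker lists, with the number of genes in brackets. Circles are the Diff–CONT library and squares the library labelled Diff–iKO, with 1 library each. The lists lie furthest apart for yolk sac and visceral endoderm (231 and 11.8) and for pluripotent markers (480 and 2996).

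Among the 48 genes, the CDK inhibitors held 3 of the 4 that passed the cut-off. Cdkn1a and Cdkn2b were at least 2-fold higher under the Diff–iKO label and Cdkn1b at least 2-fold lower, while none of the cyclin, CDK, Rb family or E2F genes among the 48 reached a 2-fold difference. Of the 48 genes, 46 reached the FPKM of the cut-off (Ccna1 and E2f2 did not). Of these 46, 3 passed the cut-off as higher, Cdkn1a, Cdkn2b and Anxa11. Over all 12376 genes at that FPKM, 6.73% did. Cdkn1b alone passed as lower, beside 8.39% of all genes. The counting interval lay above 0 for 17 of the 46 genes and below 0 for 21. Among the 11955 genes at that FPKM with an annotated transcript length, it lay above 0 for 38.7% and below 0 for 39.3%. The counts past the cut-off were thus near the background for higher genes and under it for lower ones, and the interval counts were near it in both directions. Over the 47 genes whose FPKM averaged 1 or more, the median log2 ratio was -0.09 (21 higher, 26 lower). Over the 13121 genes of the genome at that level it was -0.01. With both libraries scaled to the same sum of FPKM these medians were -0.19 and -0.10. Under that scaling 1 gene passed the cut-off as higher (Cdkn2b) and 2 as lower (Cdkn1b and E2f5), so Cdkn1a and Anxa11 did not pass.

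**Figure D2:**
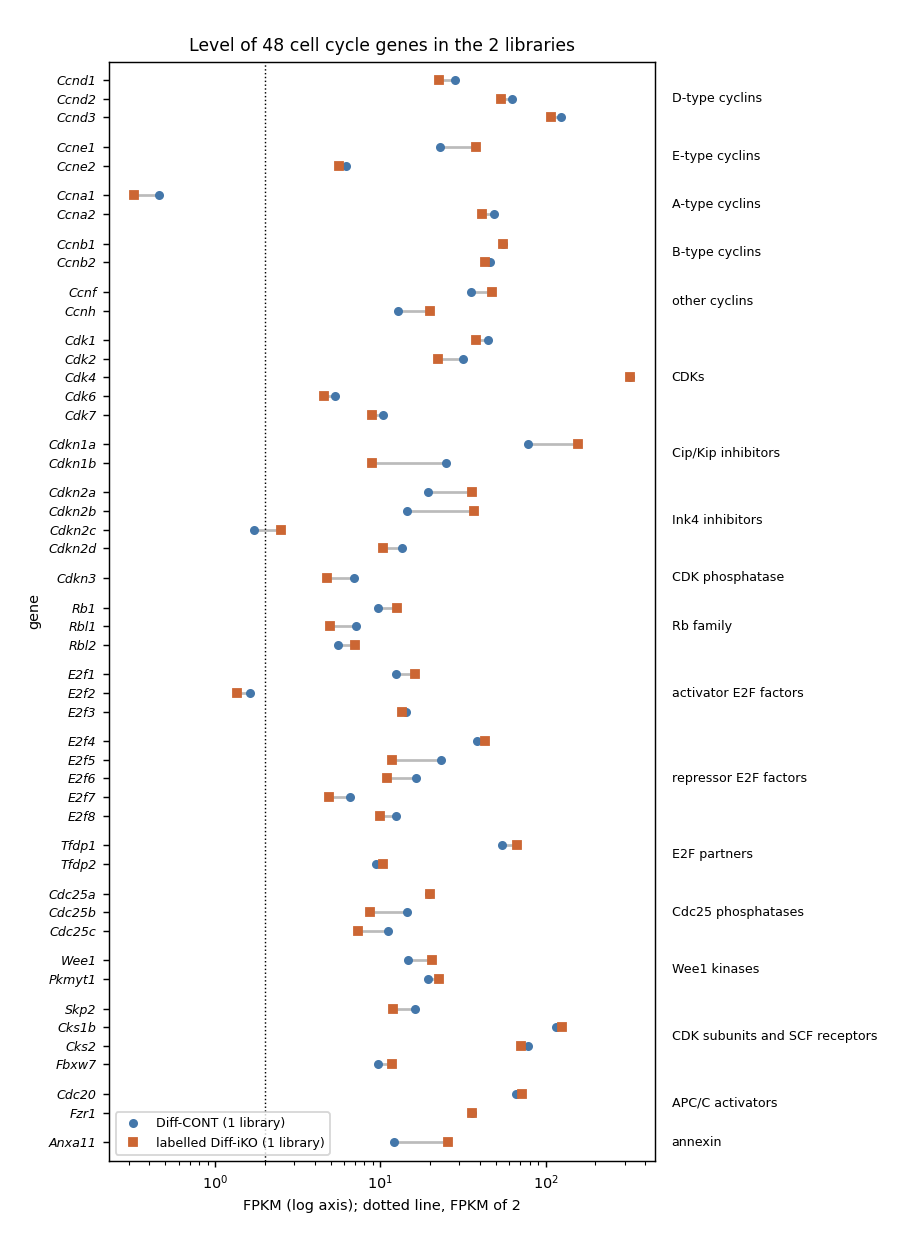
FPKM (log axis) of the 48 genes by role, with circles for the Diff–CONT library and squares for the library labelled Diff–iKO (1 library each) and a dotted line at FPKM 2. Wide gaps are seen in the inhibitors, as for Cdkn1b at 24.8 and 8.86, while Cdk4, the highest gene, lies at 325 and 322.

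The sequences before the start sites of 6 of these genes are shown here because they carry the inhibitors that passed the cut-off, the other gene of the Cdkn2a–Cdkn2b locus, the listed cyclin with the largest ratio, and a CDK with a full set of cell cycle motifs. Each run is the 250 bases before the RefSeq start (GRCm38.p6), written 5′ to 3′ on the strand of the gene. Capitals mark letters of an E2F motif (TTTCCCGC, TTTGGCGC, TTTCGCGC or TTTGCCGC), a cell cycle homology region or CHR (TTTGAA, with TTCGAA also counted), a CCAAT box (those 5 letters), each searched on either strand, or a p53 site. No motif contains another. The p53 site was searched as a pair of adjoining half-sites with at most 1 mismatch, and that search was added after the sequence of Cdkn1a had been read.
Cdkn1a, chr17:29090729-29090978, plus strand: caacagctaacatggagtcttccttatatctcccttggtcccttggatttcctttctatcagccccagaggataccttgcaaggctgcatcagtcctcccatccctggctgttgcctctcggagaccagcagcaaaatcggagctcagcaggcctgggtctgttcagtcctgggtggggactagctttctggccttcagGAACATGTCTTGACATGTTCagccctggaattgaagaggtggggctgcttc
Cdkn1b, chr6:134920151-134920400, plus strand: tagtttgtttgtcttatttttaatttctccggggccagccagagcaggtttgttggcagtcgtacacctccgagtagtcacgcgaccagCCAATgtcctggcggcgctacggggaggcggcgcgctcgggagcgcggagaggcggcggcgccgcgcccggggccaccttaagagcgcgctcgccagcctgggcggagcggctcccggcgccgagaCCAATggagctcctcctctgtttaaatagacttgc
Cdkn2b, chr4:89311033-89311282, minus strand: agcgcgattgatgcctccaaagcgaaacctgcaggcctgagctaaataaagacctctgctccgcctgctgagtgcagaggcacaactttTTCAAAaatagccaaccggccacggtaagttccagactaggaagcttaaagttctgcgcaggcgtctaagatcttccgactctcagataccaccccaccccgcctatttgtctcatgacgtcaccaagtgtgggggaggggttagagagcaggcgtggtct
Cdkn2a, chr4:89294620-89294869, minus strand: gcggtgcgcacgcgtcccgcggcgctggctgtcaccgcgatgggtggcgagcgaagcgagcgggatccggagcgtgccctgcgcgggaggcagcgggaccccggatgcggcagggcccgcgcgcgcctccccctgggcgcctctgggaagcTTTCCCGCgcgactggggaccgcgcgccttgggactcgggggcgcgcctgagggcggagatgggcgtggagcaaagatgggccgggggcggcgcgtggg
Ccne1, chr7:38107491-38107740, minus strand: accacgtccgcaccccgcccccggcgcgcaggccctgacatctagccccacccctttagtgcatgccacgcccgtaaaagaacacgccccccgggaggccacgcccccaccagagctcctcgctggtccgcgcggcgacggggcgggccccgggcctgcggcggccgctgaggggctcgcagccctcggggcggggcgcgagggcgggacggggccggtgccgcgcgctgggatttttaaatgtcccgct
Cdk1, chr10:69352913-69353162, minus strand: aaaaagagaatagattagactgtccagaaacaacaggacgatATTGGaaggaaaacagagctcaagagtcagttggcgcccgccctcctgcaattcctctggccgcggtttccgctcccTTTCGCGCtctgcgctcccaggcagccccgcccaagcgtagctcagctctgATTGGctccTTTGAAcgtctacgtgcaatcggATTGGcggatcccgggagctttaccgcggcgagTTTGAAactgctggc
The Cdkn1a run is that of the first of its start sites, and its p53 site begins 51 bases before the start. The Cdkn2a run is that of the p19Arf side. The Ccne1 run holds none of these letters, which says nothing of the factors.

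Cdkn1a (ENSMUSG00000023067, chr17:29090976-29100727) encodes p21, a Cip/Kip inhibitor of cyclin E– and cyclin A–CDK complexes and a textbook target of p53. Its FPKM was 78.1 under the Diff–CONT label (1715 fragments) and 157 under the Diff–iKO label (2599 fragments). It was 2.01-fold higher, and the interval of its log2 ratio of 1.01 ran from 0.92 to 1.10, across the cut-off. With the longest RefSeq transcript in place of the shortest, the fragments were 4036 and 6070, and the interval of 0.95 to 1.07 spanned the cut-off too. With both libraries scaled to the same sum of FPKM the log2 ratio was 0.91, and Cdkn1a no longer passed. An annotated gene of undetermined type overlaps its exons on the opposite strand.

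Cdkn1b (ENSMUSG00000003031, chr6:134920401-134925513) encodes p27, a Cip/Kip inhibitor known for holding cells in quiescence. Its FPKM was 24.8 under the Diff–CONT label (1641 fragments) and 8.86 under the Diff–iKO label (437 fragments). The lower value was 35.7% of the higher one, and the log2 ratio was -1.49 with an interval of -1.64 to -1.33, the lowest among the 48 genes. The members of the Cip/Kip family on the list thus had log2 ratios of opposite sign. Cdkn1a made up 75.9% of their summed FPKM under the Diff–CONT label and 94.7% under the other, and Cdkn1b 24.1% and 5.34%. Cdkn1c, which encodes the third Cip/Kip inhibitor, p57, and is not among the 48, had an FPKM of 108 and 115 and a log2 ratio of 0.09 (interval 0.04 to 0.15). With it included, Cdkn1c was the largest of the family under the Diff–CONT label at 51.1% of the sum, and Cdkn1a was the largest under the Diff–iKO label at 55.9%.

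Of the 4 Ink4 genes, 3 had a higher value under the Diff–iKO label, and the median log2 ratio was 0.71. Cdkn2b (ENSMUSG00000073802, chr4:89306299-89311039) encodes p15, an inhibitor of Cdk4 and Cdk6 known as a target of TGF-β signalling. Its FPKM was 14.4 under the Diff–CONT label (519 fragments) and 37.0 under the Diff–iKO label (1000 fragments), 2.57-fold higher. The log2 ratio of 1.36 (interval 1.21 to 1.52) was the highest of the 48 genes.

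Cdkn2a (ENSMUSG00000044303, chr4:89274471-89294653), the neighbour of Cdkn2b at 11.6 kb, makes both p16, an Ink4 inhibitor, and p19Arf, which acts on Mdm2 and not on CDKs. Its FPKM was 19.4 and 35.7, with a log2 ratio of 0.88 (interval 0.69 to 1.07), short of the cut-off. A whole-gene FPKM does not separate p16 from p19Arf. Cdkn2c, which encodes p18, was low in both libraries at an FPKM of 1.71 and 2.49 on 47 and 51 fragments, with a log2 ratio of 0.54 and an interval from -0.07 to 1.13. Its fragments depend on the transcript assumed: with the longest RefSeq transcript in place of the shortest they were 117 and 127, and the interval ran from 0.17 to 0.91. Cdkn2d, which encodes p19Ink4d, was the Ink4 gene with the opposite sign, at 13.6 and 10.4 (log2 ratio -0.38, interval -0.60 to -0.17).

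The summed FPKM of the Ink4 family was 49.1 under the Diff–CONT label and 85.6 under the Diff–iKO label. Within it, Cdkn2b took 29.3% and 43.3% in that order, Cdkn2d took 27.6% and 12.1%, and Cdkn2a took 39.6% and 41.7%. Over the 6 inhibitors of both families, 3 passed the cut-off (2 higher, 1 lower). Of the other 42 genes, 40 reached the FPKM of the cut-off and 1 passed. Over all genes at that FPKM, 6.73% passed as higher and 8.39% as lower. The 41 of these 42 genes whose FPKM averaged 1 or more had a median log2 ratio of -0.10. All 48 genes were chosen with earlier results of these data known.

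**Figure D3:**
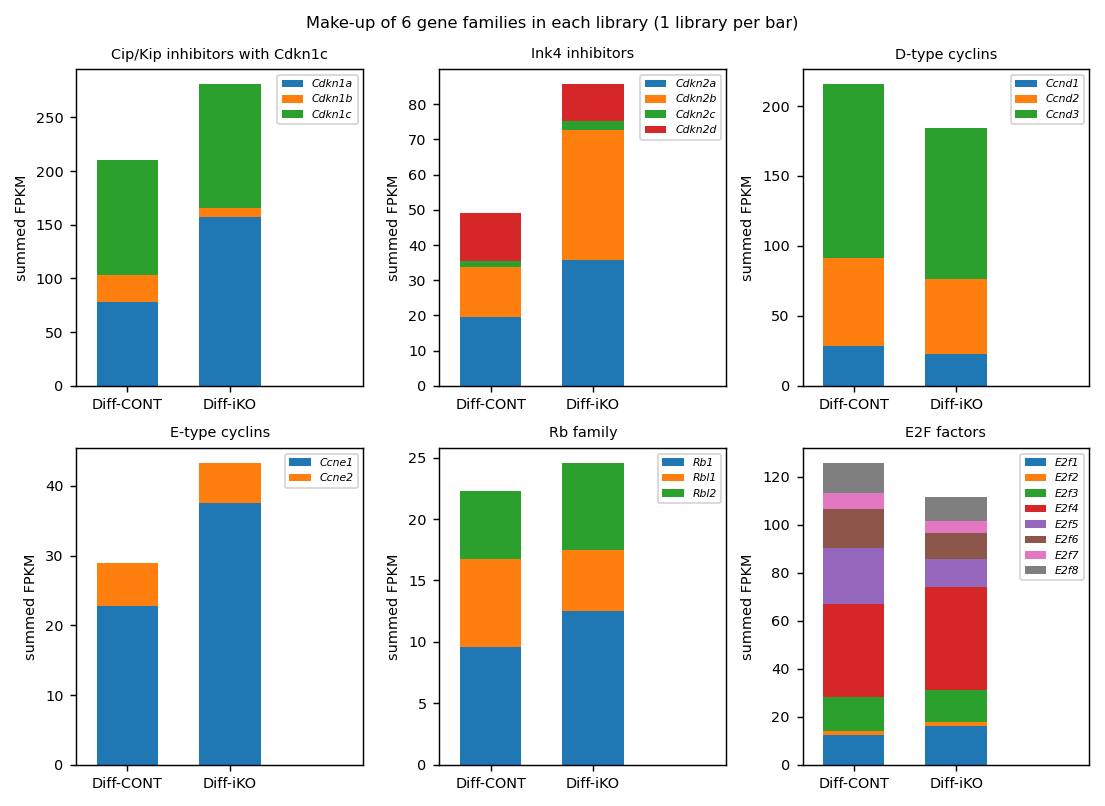
Summed FPKM of 6 families, split by gene, with 1 bar per library (Diff–CONT and the library labelled Diff–iKO) and each axis starting at 0. Cdkn1b narrows from 24.8 to 8.86 and Cdkn2b widens from 14.4 to 37.0, while the D-type cyclins keep nearly the same proportions (Ccnd3 at 57.7% and 58.4%).

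Of the 10 listed cyclin genes whose FPKM averaged 1 or more, none passed the cut-off, and the median log2 ratio was -0.12. The D-type cyclins, which link growth signals to Cdk4 and Cdk6, were all slightly lower under the Diff–iKO label. Ccnd3 was the highest at an FPKM of 124 and 108, Ccnd2 lay at 62.8 and 54.0, and Ccnd1 at 28.2 and 22.8. Their log2 ratios were -0.21, -0.22 and -0.31, and all 3 intervals lay below 0. The order of the genes was the same in both libraries, and their sum was 215 and 184.

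Ccne1 (ENSMUSG00000002068, chr7:38097984-38107534), which encodes the cyclin that starts S phase with Cdk2, had the largest ratio among the 11 cyclin genes of the list. Its FPKM was 22.8 under the Diff–CONT label (1238 fragments) and 37.6 under the Diff–iKO label (1527 fragments), a log2 ratio of 0.72 (interval 0.61 to 0.83). Ccne2, the other E-type cyclin, had an FPKM of 6.21 and 5.62 with an interval that included 0 (-0.34 to 0.06). Ccne1 made up 78.6% of the E-type sum under the Diff–CONT label and 87.0% under the other.

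The A- and B-type cyclins act in S phase and mitosis. Ccna2, the somatic cyclin A gene, had an FPKM of 48.4 and 41.3 (log2 ratio -0.23, interval -0.30 to -0.16). Ccna1, the germ cell form, was near the floor at 0.459 and 0.323 on 19 and 10 fragments. Among the mitotic cyclins, Ccnb1 had 54.9 and 55.1 (interval -0.07 to 0.08) and Ccnb2 had 46.0 and 42.8 (interval -0.21 to -0.00073).

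The remaining cyclins were both higher under the Diff–iKO label. Ccnf, whose product is an F-box protein of an SCF ubiquitin ligase and not a CDK activator, had an FPKM of 35.5 and 47.0 (log2 ratio 0.41, interval 0.34 to 0.47). Ccnh, the partner of Cdk7 in the CDK-activating kinase, had 12.7 and 19.9 (log2 ratio 0.64, interval 0.50 to 0.79). Its kinase Cdk7 had the opposite sign, at 10.3 and 8.90 (log2 ratio -0.21, interval -0.40 to -0.01).

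All 5 CDK genes of the list had a lower value under the Diff–iKO label, with a median log2 ratio of -0.23, and 4 of the intervals lay below 0. Cdk4 (ENSMUSG00000006728) was the highest of the 48 genes, at an FPKM of 325 and 322, and its log2 ratio of -0.02 (interval -0.05 to 0.02) was not beyond counting error. The other G1 kinase, Cdk6, had 5.32 and 4.55. Cdk4 thus stood 61.1-fold above Cdk6 under the Diff–CONT label and 70.7-fold above it under the other.

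Cdk2, the partner of cyclins E and A, had the lowest log2 ratio of the 5 CDK genes of the list at -0.49 (interval -0.60 to -0.38), with an FPKM of 31.5 and 22.4. Cdk1, the mitotic kinase, had 44.8 and 38.0 (log2 ratio -0.24, interval -0.30 to -0.18). Set against its inhibitor, Cdkn1a was 2.48 times as high as Cdk2 in FPKM under the Diff–CONT label and 7.01 times under the other. Ccne1 was 0.918 times as high as Cdkn1b under the Diff–CONT label and 4.25 times under the other. These pairs, like the others set side by side below, were chosen after their values were seen.

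**Figure D4:**
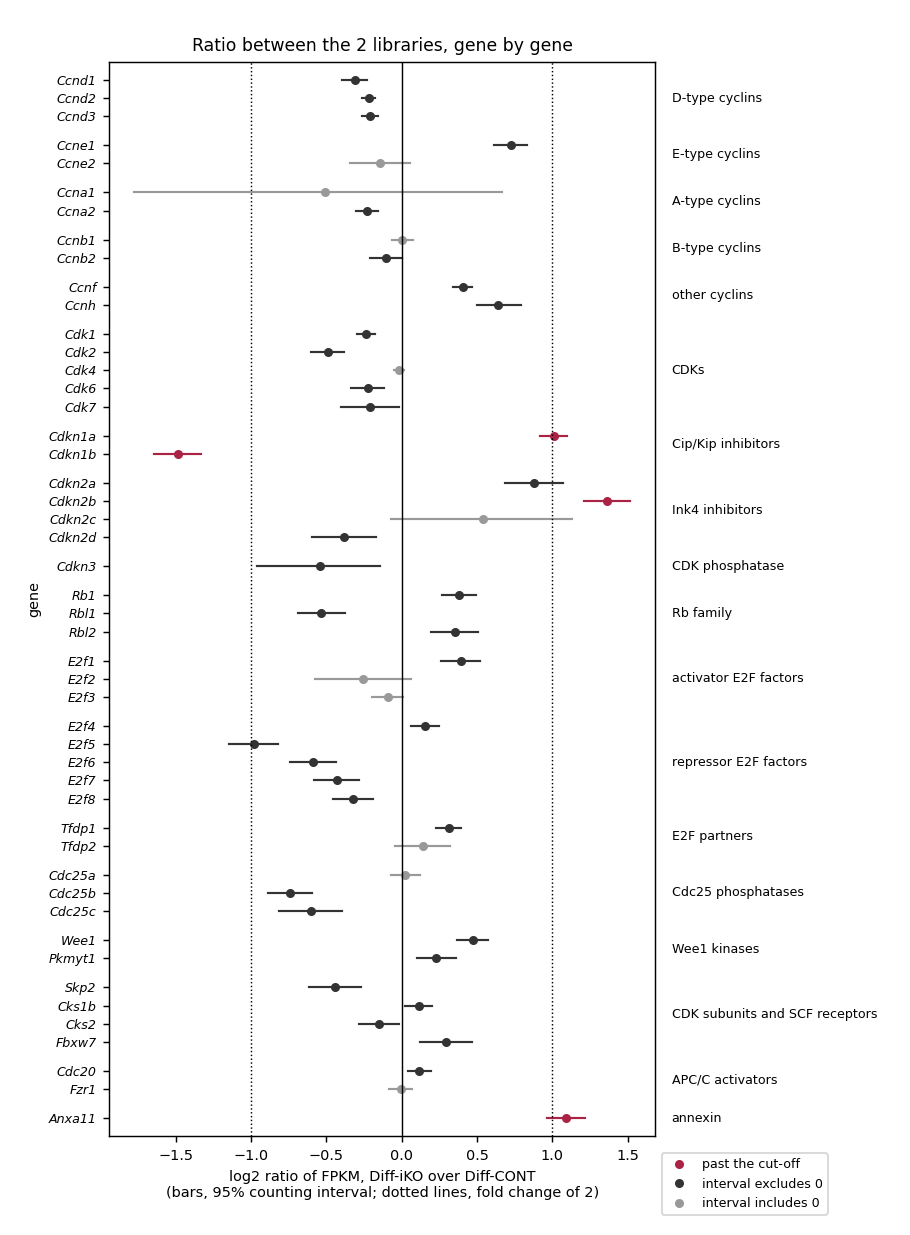
Log2 ratio of FPKM, the library labelled Diff–iKO over the Diff–CONT library (1 library each), for the 48 genes by role, with bars for the 95% counting interval and dotted lines at a fold change of 2. Red genes are past the cut-off (Cdkn1a, Cdkn1b, Cdkn2b and Anxa11), black ones have an interval without 0 and grey ones include 0, and all other points lie between the dotted lines.

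The enzymes that add and remove the inhibitory phosphates of CDKs leaned in opposite directions. Wee1, a kinase that inhibits Cdk1, had an FPKM of 14.7 under the Diff–CONT label and 20.4 under the Diff–iKO label (log2 ratio 0.47, interval 0.36 to 0.58). Pkmyt1, the membrane-bound kinase of that family, had 19.3 and 22.6 (interval 0.10 to 0.36). Of the activating phosphatases, Cdc25b had 14.5 and 8.67 (log2 ratio -0.74, interval -0.89 to -0.59) and Cdc25c had 11.1 and 7.28 (log2 ratio -0.60, interval -0.81 to -0.40). Cdc25a, the phosphatase of the G1 to S step, had 19.7 and 20.0, with an interval that included 0. FPKM of Wee1 and Cdc25b was nearly equal under the Diff–CONT label, at a ratio of 1.02, and 2.35 under the other. Cdkn3, which encodes a phosphatase that removes the activating phosphate of CDKs, was low at 6.93 and 4.77 (interval -0.96 to -0.14).

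Genes of cyclin and inhibitor turnover had ratios in both directions. Skp2, the F-box receptor through which p27 is degraded, had an FPKM of 16.1 and 11.9 (log2 ratio -0.44, interval -0.61 to -0.27). Its cofactor Cks1b had 115 and 125 and the related CDK subunit Cks2 had 78.3 and 70.6, with log2 ratios of 0.11 and -0.15. Fbxw7, the receptor for cyclin E, had 9.63 and 11.8 (interval 0.12 to 0.46). Skp2 and Cdkn1b were thus both lower, and Fbxw7 and Ccne1 both higher, under the Diff–iKO label. The activators of the anaphase-promoting complex (APC/C) had small ratios, with Cdc20 at 66.4 and 71.9 (log2 ratio 0.12) and Fzr1 at 35.7 and 35.6 (interval -0.09 to 0.07).

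The Rb family held both directions. Rb1, the retinoblastoma protein gene, had an FPKM of 9.62 under the Diff–CONT label and 12.5 under the Diff–iKO label (log2 ratio 0.38, interval 0.27 to 0.49). Rbl2, which encodes p130, had 5.53 and 7.05 (interval 0.20 to 0.50). Rbl1, which encodes p107, had 7.15 and 4.94 (log2 ratio -0.53, interval -0.69 to -0.38). Rb1 therefore took 43.1% of the family sum under the Diff–CONT label and 51.1% under the other, and Rbl1 took 32.1% and 20.2%. Rb1 shares exonic bases with Lpar6 and Rcbtb2 on the opposite strand, and the strand setting of the counting is not given in the sources used here.

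The 8 E2F genes had a median log2 ratio of -0.29, with 2 higher and 6 lower, and none passed the cut-off. Among the activators, E2f1 had an FPKM of 12.4 and 16.3 (log2 ratio 0.39, interval 0.26 to 0.52). The intervals of E2f3 (14.3 and 13.4) and of E2f2 (1.62 and 1.35) included 0. The 5 repressor genes had a median of -0.43.

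E2f5 (ENSMUSG00000027552, chr3:14578641-14606309), a partner of p107 and p130, had the lowest ratio of the E2F genes. Its FPKM was 23.3 under the Diff–CONT label (1110 fragments) and 11.8 under the Diff–iKO label (420 fragments). The log2 ratio was -0.98, just short of the cut-off, and its interval of -1.15 to -0.82 spanned it. With both libraries scaled to the same sum of FPKM, E2f5 passed. It overlaps 1810022K09Rik on the opposite strand, which had an FPKM of 77.5 and 83.6. E2f4, the related repressor and the highest E2F gene, had 38.5 and 42.9 (interval 0.06 to 0.25), so that E2f4 was 1.65 times as high as E2f5 under the Diff–CONT label and 3.65 times under the other.

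The other repressors were lower under the Diff–iKO label. E2f6, which acts without Rb proteins, had an FPKM of 16.4 and 10.9 (log2 ratio -0.59, interval -0.74 to -0.44). The atypical factors E2f7 and E2f8, which bind DNA without a DP partner, had 6.59 and 4.88 (log2 ratio -0.43) and 12.4 and 9.93 (log2 ratio -0.32), and both intervals lay below 0. The DP partner genes were not lower, with Tfdp1 at 54.2 and 67.3 (log2 ratio 0.31, interval 0.23 to 0.40) and Tfdp2 at 9.36 and 10.3 (interval -0.04 to 0.32, or 0.04 to 0.23 with its longest transcript).

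Anxa11 (ENSMUSG00000021866, chr14:25842156-25886804) had an FPKM of 12.1 under the Diff–CONT label (800 fragments) and 25.8 under the Diff–iKO label (1272 fragments). It was 2.13-fold higher, with a log2 ratio of 1.09 and an interval of 0.96 to 1.22. Its interval spanned the cut-off, and Anxa11 did not pass with both libraries scaled to the same sum of FPKM. An antisense gene, Anxa11os, overlaps its exons.

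The promoters of 37 of the 48 genes were matched by symbol in the set of RefSeq promoters used here (48 start sites, windows of 250 bases before to 50 after the start). Ccna2, Ccnd1, Ccnd2, Ccne2, Ccnh, Cdc25c, E2f4, E2f5, Pkmyt1, Rb1 and Wee1 had no entry in that set, although each has a RefSeq transcript. The E2F motif was in 10 of the 48 windows, 20.8% of them, against 2.26% of the 32851 windows of all genes. The 9 genes with it were Cdc25a, Cdk1, Cdk2, Cdkn2a, E2f2, E2f3, E2f7, Rbl1 and Tfdp1, of which 3 were higher and 6 lower under the Diff–iKO label (median log2 ratio -0.24). The 28 without it had a median of -0.01.

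The CCAAT box was in 24 of the 48 windows, against 37.4% of all windows. Of the 23 genes with it, 16 were lower, Cdkn1b among them, and 7 higher, Cdkn2a among them (median log2 ratio -0.21). Of the 14 without it, 9 were higher, Cdkn1a, Cdkn2b, Ccne1 and Anxa11 among them, and 5 lower, E2f6 and Rbl1 among them (median 0.30). The CHR was in 13 windows, or 27.1%, against 19.2% of all, and the 13 genes with it ranged from a log2 ratio of -0.74 to 1.36. Cdk1 held an E2F motif, CHRs and CCAAT boxes in 1 window. The p53 site was in 29 windows of all genes, or 0.0883%. Among the windows of the 37 matched genes it was in the first window of Cdkn1a and not in its second. Because that search was added after this sequence had been read, the match was known beforehand, and the share cannot serve as a test of it. These matches describe letters and were not tested against the ratios.

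Other genes of the pathway, 157 in 9 lists, showed few differences past the cut-off, with 4 higher and 3 lower among the 153 that reached an FPKM of 2, both below the share of all genes past it. Mybl2, which encodes the B-Myb partner of the MuvB complex, had an FPKM of 20.9 under the Diff–CONT label and 68.4 under the Diff–iKO label (log2 ratio 1.71, interval 1.64 to 1.78). The other MuvB, Myb and FoxM1 genes did not pass, and Rbbp4, their highest, had 73.6 and 57.7. Of the other cyclins of the genome, Ccno was higher (0.237 and 2.08, on 12 and 79 fragments) and Ccnjl lower (5.49 and 1.63). Ccng1, a textbook p53 target and the highest of them, had 94.4 and 175 (log2 ratio 0.89, interval 0.86 to 0.93), and Ccnl2 had 96.4 and 64.9. Of the other CDKs, Cdkl2 was higher (1.36 and 4.56) and Cdk14 lower (11.9 and 5.27), while Cdk11b (56.4 and 68.6) and Cdk16 (50.6 and 70.9) did not pass. The 13 other cyclins whose FPKM averaged 1 or more had a median log2 ratio of -0.41 (4 higher, 9 lower). The 16 other CDKs at that level had a median of 0.19 (9 higher, 7 lower), opposite in sign to that of the CDKs on the list.

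Median log2 ratios of the lists of replication, mitosis and ubiquitin ligase genes lay between -0.12 and 0.19. None of the 18 replication licensing genes passed, 14 of them were higher, and the median log2 ratio was 0.19, with Mcm7 at an FPKM of 98.4 and 109.7 and Mcm6 at 81.7 and 70.2. Of 33 S phase genes (median -0.09), the mismatch repair gene Msh6 was higher at 45.6 and 99.3 and the GINS subunit gene Gins2 lower at 29.2 and 14.2. Pcna, the polymerase clamp and the highest of that list, had 107.7 and 94.2, and Cenpa and Top2a of the mitotic list had 55.2 and 64.4, and 107.5 and 90.7. None of the 40 mitotic genes passed, 30 were lower, and the median was -0.12. APC/C subunits (17 genes, median -0.02, with Anapc5 at 99.7 and 98.2 and Ube2c at 89.2 in both) and SCF subunits (8 genes, median 0.18, with Skp1a at 149.6 and 196 and Nedd8 at 131 and 159) had none past the cut-off.

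**Figure D5:**
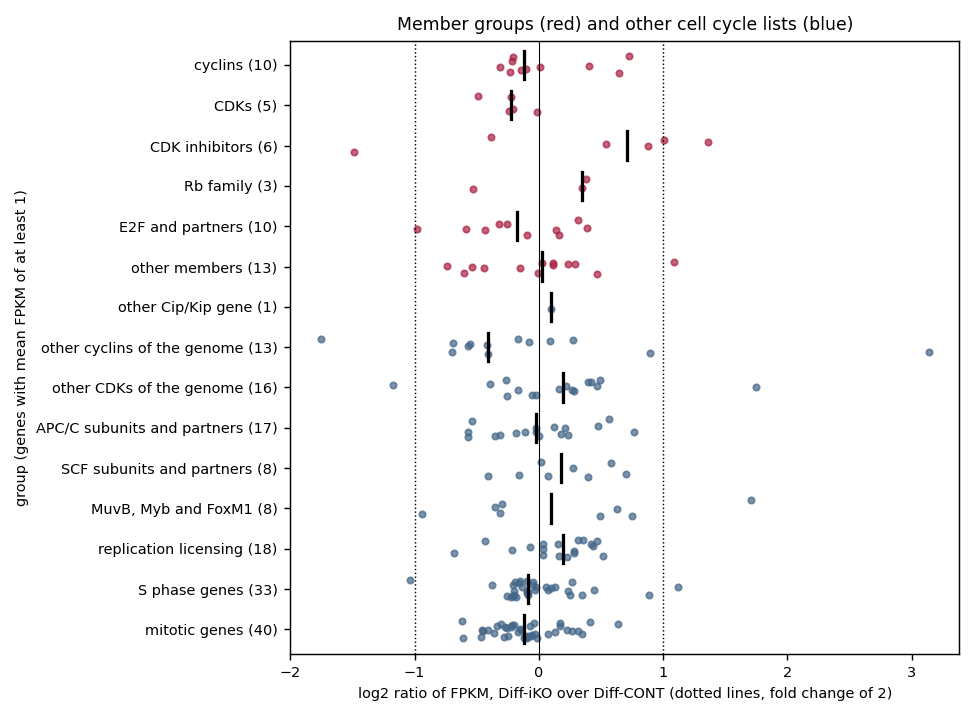
Log2 ratio of FPKM, the library labelled Diff–iKO over the Diff–CONT library, with 1 point per gene whose FPKM averaged 1 or more, for 6 groups of the 48 genes (red) and 9 other cell cycle lists (blue), with the number of genes in brackets. Black bars are medians (0.71 for the CDK inhibitors, -0.23 for the CDKs) and dotted lines mark a fold change of 2.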

How the data were processed

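Poly(A) RNA of 1 Diff–CONT and 1 Diff–iKO library was read as paired ends after stranded library preparation from 1 µg of RNA. FPKM values of 24354 genes were deposited. The submitters' processing notes name STAR 2.7.9a, Cufflinks 2.2.1, Cuffnorm and mm10, and the gene annotation and strand setting are not given in the sources used here. The columns were assigned to the libraries by name, and 0 other columns of values were present.

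Log2 ratios (Diff–iKO over Diff–CONT) were taken without a pseudocount. Genes passed the cut-off at FC ≥ 2 where 1 or both FPKM values were ≥ 2. No p-value was computed, since no condition had a replicate. Group medians used genes whose FPKM averaged 1 or more, while medians by promoter motif used all matched genes, Ccna1 included. Fragments were recovered from the FPKM steps of low values (up to 8 fragments) of genes with transcripts of at least 1000 nucleotides, with effective lengths shortened by 190 and 180 nucleotides. They use the shortest RefSeq transcript, so intervals are approximate for genes with several (31 of the 48 had 1). The steps were tested on simulated data.

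Coordinates are from GENCODE vM21 (GRCm38), matched by symbol for 23315 genes and all 48 of the list. Promoters are from RefSeq GRCm38.p6. Exons of 22 of the 48 genes overlap a gene on the opposite strand, and 1, Ccnf, overlaps a microRNA on the same strand. GENCODE lists pseudogenes of Ccnb1, Ccnb2 and Ccnd3 and a copy of Cks1b, Cks1brt, so the reads of these genes may have been split.

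The members and lists were chosen with earlier results of these data known. The 48 genes were all named, with Ino80 and, of the 9 other lists, the genes past the cut-off and the 2 highest by mean FPKM. Alternatives were other FPKM filters, pseudocounts of 0.1 and 1, FC of 1.5 and 4, 3 other scalings, a mean FPKM of 5 or none for medians, 99% intervals and the longest transcript. The software was Python 3.11.15 with pandas 2.3.3, numpy 2.4.6, matplotlib 3.10.9 for the plots and scipy 1.17.1 for the intervals. Other assays of the study were not analysed here.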

Additional observations from a re-analysis of the deposited data

How the results depend on the processing

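With FC of at least 1.5 in place of 2, 6 of the 48 genes passed as higher (Ccne1, Ccnh and Cdkn2a were added) and 5 as lower (Cdc25b, Cdc25c, E2f5 and E2f6 were added). With FC of at least 4, 0 passed in either direction. With each library scaled to the same sum of FPKM, which shifts every log2 ratio by -0.09, 1 passed as higher (Cdkn2b) and 2 as lower (Cdkn1b and E2f5). That scaling also took the median of the APC/C activators from 0.05 to -0.039, that of the 48 genes from -0.09 to -0.19 and that of the cyclins from -0.12 to -0.22, beside -0.01 to -0.10 for all genes. It moved those of the E2F partners (0.23 to 0.13) and of the CDK subunits and SCF receptors (-0.02 to -0.11) by over 1.5 times too, and took 14 of the 48 single ratios outside their counting interval. Cdkn1b and Cdkn2b passed under every alternative other than FC of at least 4. With genes at a mean FPKM of at least 5, the median of the 48 genes was -0.06. With a pseudocount of 1, Cdkn1a did not pass and the number higher was 2. The other scalings, filters and pseudocounts kept all 4 genes past the cut-off, summing rows of 1 symbol had no effect because no symbol was repeated, and counts of intervals on either side of 0 stayed within 1.5 times. With fragments from the longest transcript, the intervals of Cdkn2c and Tfdp2, which included 0, lay above 0, and the number above 0 was 19 in place of 17. No gene whose interval excluded 0 changed sign under these scalings and pseudocounts. No paired analysis was possible because each condition had 1 library. Depth limits Ccna1, with 19 and 10 fragments.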

Other observations

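The nearest protein-coding neighbours of the 4 genes past the cut-off were read from the same libraries. Next to Cdkn1a on chromosome 17, Srsf3, a splicing factor gene at 47.6 kb, had an FPKM of 96.2 under the Diff–CONT label and 80.3 under the Diff–iKO label (log2 ratio -0.26), and Rab44, on the other side at 13.4 kb, was listed at 0 and 0.0114. Next to Cdkn1b on chromosome 6, Gpr19 at 21.8 kb had 9.36 and 7.96 (log2 ratio -0.23, interval -0.76 to 0.25), and Apold1 at 56.2 kb had 0.688 and 0.360. None of these 4 neighbours passed the cut-off. At the Ink4 locus on chromosome 4, Cdkn2b and Cdkn2a were both higher under the Diff–iKO label, by 1.36 and 0.88 on the log2 scale, and the next gene, Dmrta1 at 368 kb, was at 0.317 and 0.0803. Next to Anxa11 on chromosome 14, Zcchc24 at 73.1 kb had 14.1 and 10.5 (log2 ratio -0.42), and Plac9a at 0.702 kb was listed at 0 in both libraries.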
